A study of Mus musculus with 20 samples.

Results

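The complement system is a cascade of plasma and tissue proteins that marks cells and immune complexes for removal. C1q binds antibody or damaged surfaces and starts the classical pathway, in which C4 and C2 form the enzyme that cleaves C3, while factor B forms the corresponding enzyme of the alternative pathway. Cleavage of C3 and C5 releases the anaphylatoxins C3a and C5a, which act on receptors of myeloid cells. In the kidney, C1q is made mainly by resident macrophages and dendritic cells, whereas C3, C4 and factor B are also made by tubule cells.

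The 9 genes followed were grouped by role: the 3 C1q chains C1qa, C1qb and C1qc, the components C2, C3, C4b and factor B (Cfb), and the anaphylatoxin receptors C3ar1 and C5ar1. They were chosen by name, are 9 of the 47069 genes in the count table, and all 9 were among the 17622 genes with enough counts to be tested. Another 43 complement genes, named by their place in the cascade, were listed beside them, and 37 of these could be tested.

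The libraries came from whole kidneys of 20 mice on a 129SJ x C57Bl/6J background. WT mice (n = 5) were untreated. The other 3 groups were Col4a3-/- mice, a model of Alport syndrome that lacks the alpha3 chain of type IV collagen, and received weekly subcutaneous PBS (Veh, n = 6), weekly lademirsen at 50 mg/kg in PBS (Anti-miR-21, n = 6) or ramipril at 11 mg/L in their water (ACEi, n = 3; by the study's methods also injected with PBS). The deposited library table gives the ramipril dose differently, per body weight. Treatment ran from 5 weeks of age, and these mice were killed at 15 weeks of age. Lademirsen is an oligonucleotide that binds miR-21 and ramipril inhibits the angiotensin-converting enzyme. The mature sequence of the mouse miRNA, from RefSeq (GRCm38.p6, chr11:86584120-86584141, minus strand), is shown because it is the target of the first treatment, with its seed (bases 2 to 8) in capitals.
mmu-miR-21a-5p: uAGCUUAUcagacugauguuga

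The estimated counts summed to between 28474301 and 29479629 per library. Levels are given as CPM, the usual depth-scaled counts, after TMM scaling between libraries, and differences as log2 fold changes ± SE from edgeR's quasi-likelihood test over all 20 libraries, with p adjusted over all tested genes and called under 0.05. CPM is not divided by gene length, so levels of members were compared with each other only as FPKM, the authors' values per length and library total. Where a list is said to be led by a gene, that gene had the highest mean CPM of the list over the 20 libraries, which is neither a rank per length nor a rank within each group. In whole kidney, fewer cells of a type and less RNA per cell cannot be told apart.

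Col4a3, the disrupted gene (chr1:82586921-82722059, GRCm38, plus strand), had 193.8, 208.3, 221.5, 221.7 and 237.5 CPM in the 5 WT libraries. In Veh it ranged from 27.9 to 46.3 CPM with a median of 38.2, in Anti-miR-21 from 45.9 to 74.9 CPM with a median of 55.7, and the 3 ACEi libraries had 42.8, 46.4 and 56.2 CPM. Every library labelled Col4a3-/- was therefore below every WT library, and none was at 0. The counts cover the whole gene, also outside the disrupted stretch. The extraction text in the labels names adipose tissue while the tissue label names kidney. Slc34a1, the phosphate transporter of the proximal tubule, averaged 8517 CPM in WT, and Cidec, which led the adipocyte markers, averaged 1.52 CPM there.

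Some libraries stood apart. The summed level of 5 adipocyte markers was between 90.1 and 120.3 CPM in Veh replicates 1, 2 and 3, was 99.7 CPM in Anti-miR-21 replicate 4, and was at most 22.4 CPM in each of the other libraries. The hepatocyte marker Ahsg was at 6.34, 8.14 and 6.49 CPM in WT replicates 4 and 5 and Veh replicate 6, and at most 1.91 CPM elsewhere. The library names give 2 flow cells, of which the first (A) held 3 WT, 4 Veh, 5 Anti-miR-21 and 1 ACEi libraries and the second (B) held 2, 2, 1 and 2.

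Between Veh and WT, 8 members rose and 1 fell, and in all 9 the groups did not overlap. Of all tested genes 39.0% were called higher and 34.0% lower in this comparison, and 28.8% were higher and 26.1% lower with groups that did not overlap. Of the called genes 53.4% were higher, and 81.2% when libraries were scaled by their totals alone. The median log2 fold change was 4.41 over the 9 members and 0.07 over all genes. The largest rise was that of C3, the fall was that of Cfb, and the 3 C1q chains and both receptors rose by similar amounts, with log2 fold changes between 4.33 and 4.59.

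**Figure D1:**
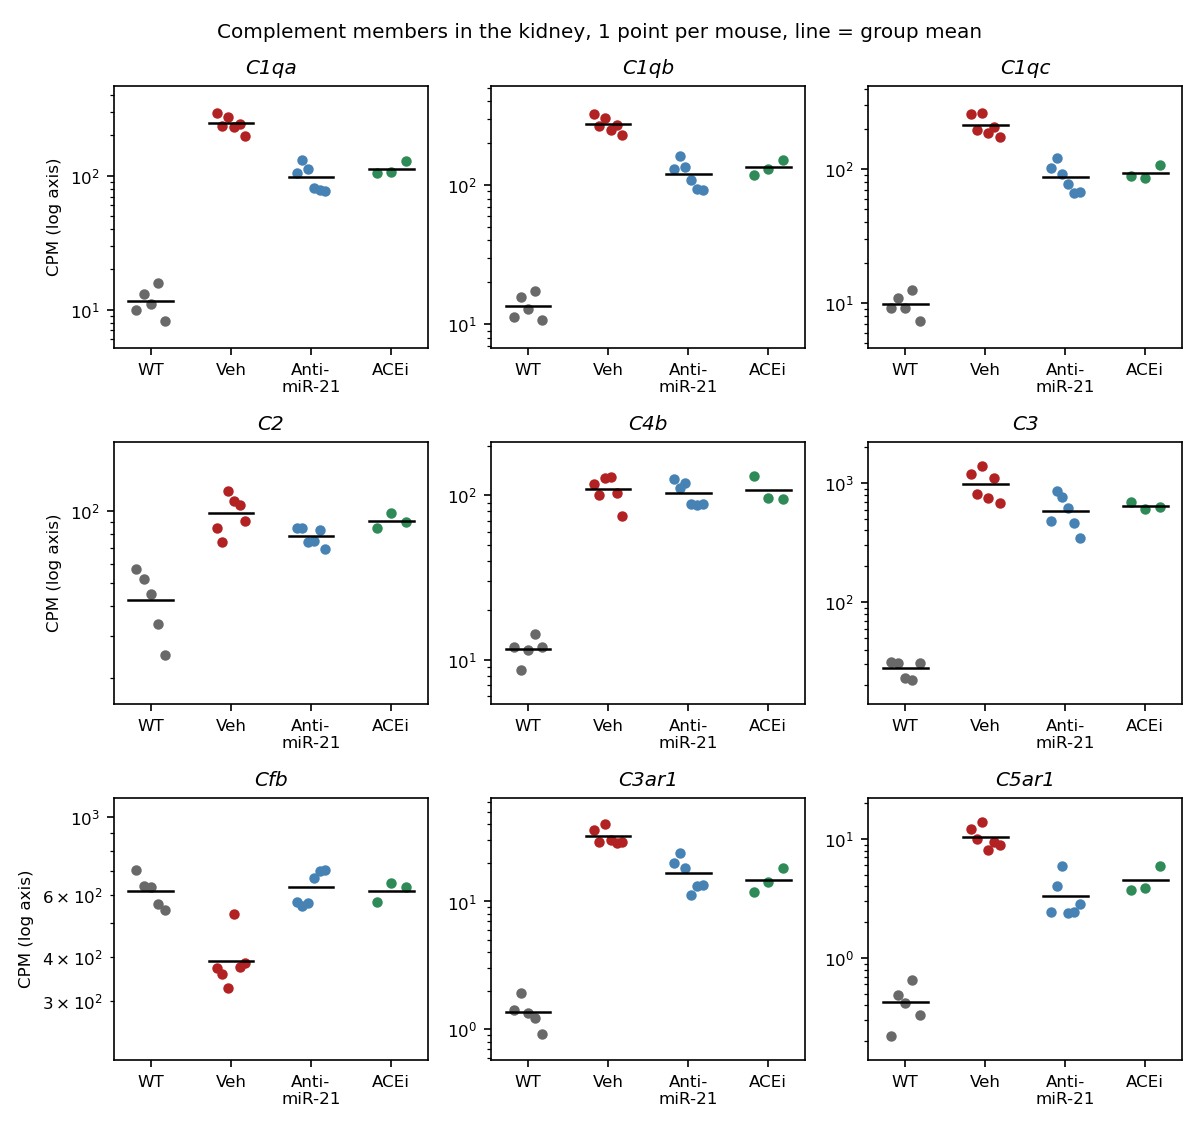
Levels of the 9 members in CPM (log axis, different range in each panel) in the kidney of each mouse, grouped as WT (n = 5), Veh (n = 6), Anti-miR-21 (n = 6) and ACEi (n = 3), with 1 point per mouse and a line at the group mean. The 8 members that rose in Veh lie above WT in every Veh mouse, and Cfb lies below WT in every Veh mouse.

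The 3 C1q genes lie side by side on chromosome 4 (GRCm38, minus strand) at chr4:136895917-136898803 for C1qa, chr4:136880129-136886187 for C1qb and chr4:136889804-136893065 for C1qc, and their products are combined in equal numbers in the C1q molecule. C1qa was at 8.26, 9.93, 11.0, 13.04 and 15.8 CPM in WT. In Veh it ranged from 199 to 293 CPM with a median of 239, and no Veh library came near the WT range. The mean rose from 11.6 ± 2.92 (SD, n = 5) to 246 ± 33.3 CPM (SD, n = 6), which is 21.2-fold (log2 fold change 4.41 ± 0.19, edgeR adjusted p = 4.95e-13). C1qb rose 20.2-fold, from 10.8 to 17.3 CPM across WT to 229 to 322 CPM across Veh. C1qc rose 21.7-fold, from 7.38 to 12.6 CPM to 175 to 261 CPM. The chains kept close to each other mouse by mouse. The FPKM ratio of C1qb to C1qa was 1.19 ± 0.08 in WT (SD, n = 5), 1.12 ± 0.03 in Veh (n = 6), 1.25 ± 0.06 in Anti-miR-21 (n = 6) and 1.19 ± 0.04 in ACEi (n = 3), so a 21.2-fold change in level came with ratios between 1.07 and 1.37 in all 20 mice. For C1qb to C1qa the Veh range (1.07 to 1.16) lay below the Anti-miR-21 range (1.21 to 1.37), and WT and ACEi overlapped both. The ratio of C1qc to C1qa stayed between 0.777 and 0.982.

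The promoters of C1qb and C1qc are shown because these neighbouring genes moved together. They are 300-base windows from RefSeq (GRCm38.p6, minus strand, 250 bases before and 50 after the transcription start), at chr4:136886151-136886450 for C1qb and chr4:136892865-136893164 for C1qc, and were available for 5 members (these 2, C3, C3ar1 and C5ar1). Each was searched on both strands for GAGGAA (the core bound by PU.1, a myeloid factor), TTGCNNAA (C/EBP), TTCNNNGAA (STAT), GAAANNGAA (IRF) and GGGANNTTC (NF-kB). Capitals mark the matches. Both C1q windows held 1 match to GAGGAA, in C1qb as written and in C1qc on the other strand, and 28.3% of all 32851 promoters held one.
C1qb: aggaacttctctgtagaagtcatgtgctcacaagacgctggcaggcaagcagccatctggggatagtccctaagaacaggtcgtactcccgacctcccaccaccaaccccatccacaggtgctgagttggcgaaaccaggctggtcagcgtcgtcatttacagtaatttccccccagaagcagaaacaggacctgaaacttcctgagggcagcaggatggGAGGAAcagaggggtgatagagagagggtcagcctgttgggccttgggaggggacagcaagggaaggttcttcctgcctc
C1qc: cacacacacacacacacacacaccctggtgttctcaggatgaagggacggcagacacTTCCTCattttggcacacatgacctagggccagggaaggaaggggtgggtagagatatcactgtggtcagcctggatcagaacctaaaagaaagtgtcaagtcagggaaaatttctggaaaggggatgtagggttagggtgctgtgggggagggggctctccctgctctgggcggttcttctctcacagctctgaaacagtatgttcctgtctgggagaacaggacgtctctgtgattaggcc

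C3 (chr17:57203970-57228136, minus strand), the component on which all pathways converge, was at 22.4, 23.1, 31.0, 31.2 and 31.6 CPM in WT. In Veh it ranged from 685 to 1383 CPM with a median of 958. The Veh libraries thus differed among themselves by about as much as their lowest value, yet all lay far above WT. The rise was 35.4-fold (log2 fold change 5.15 ± 0.26, edgeR adjusted p = 2.5e-12). The C3 window (chr17:57228087-57228386) is shown as that of the member with the largest rise, and the match in capitals is to TTGCNNAA, which 10.8% of all promoters held.
C3: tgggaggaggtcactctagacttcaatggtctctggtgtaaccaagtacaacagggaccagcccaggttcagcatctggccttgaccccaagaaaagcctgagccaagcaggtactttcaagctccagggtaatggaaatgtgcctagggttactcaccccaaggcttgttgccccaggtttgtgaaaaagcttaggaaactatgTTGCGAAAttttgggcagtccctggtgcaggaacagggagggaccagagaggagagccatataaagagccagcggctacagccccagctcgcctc
The windows of C3ar1 and C5ar1 held no match and 1 match to GAAANNGAA (8.56% of promoters), respectively, and TTCNNNGAA (8.3%) and GGGANNTTC (3.94%) were in none of the 5.

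C4b (chr17:34728380-34743882, minus strand), the complement C4 gene, was at 8.61, 11.5, 11.95, 12.03 and 14.3 CPM in WT and between 74.8 and 129.9 CPM in Veh (median 111). No library of one group reached the other, and the rise was 9.34-fold (log2 fold change 3.22 ± 0.17, edgeR adjusted p = 3.02e-12). Its FPKM was 1.56 ± 0.37 in WT and 34.4 ± 7.53 in Veh, a larger difference than in CPM. C4a, a near-identical copy, was called lower in Veh from its counts, from 6.18 ± 3.10 CPM in WT (SD, n = 5) to 1.43 ± 0.34 CPM in Veh (SD, n = 6), with a log2 fold change of -2.11 ± 0.26 (edgeR adjusted p = 3.7e-07), but its FPKM was higher in Veh, at 3.43 ± 1.75 against 2.29 ± 0.53. Reads of these paralogues may be divided between them by the counting, so both values, and the direction for C4a, are uncertain.

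C2 and Cfb are neighbours on chromosome 17 (minus strand), at chr17:34862604-34898265 and chr17:34856374-34862518, and code for the proteases of the classical and alternative C3-cleaving enzymes. C2 was at 24.8, 33.5, 44.6, 52.0 and 57.1 CPM in WT and between 73.9 and 121 CPM in Veh (median 98.2). The groups did not overlap, although both were wide, and the 2.30-fold rise was the smallest among the 8 (log2 fold change 1.204 ± 0.16, edgeR adjusted p = 1.42e-06). Cfb went the other way. It was at 542, 566, 632, 636 and 706 CPM in WT and ranged from 326 to 527 CPM in Veh with a median of 373, a log2 fold change of -0.66 ± 0.11 (edgeR adjusted p = 1.63e-05) that was lost when libraries were scaled by their totals alone (-0.08, adjusted p = 0.355). That scaling moved the median of all genes between Veh and WT from 0.07 to 0.65. On log2(FPKM + 1) in limma, also without TMM scaling, it was -0.04 (adjusted p = 0.672). Cfb was called higher under none of these settings. Between Veh and WT its difference of mean log2 CPM was -0.88 in flow cell A and -0.30 in B, and that of C2 was 0.89 in A and 1.79 in B. The annotated gene Gm20547 overlaps both C2 and Cfb on the same strand, and its count was 1 to 105 in WT libraries and 188 to 995 in Veh libraries, so counts at this locus may be divided with it, which was not tested.

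Per length, the receptors were the lowest of the 9. C3ar1 (chr6:122847138-122856161, minus strand), the receptor of C3a, was at 0.923, 1.23, 1.35, 1.43 and 1.93 CPM in WT and between 28.7 and 40.2 CPM in Veh (median 29.8). C5ar1 (chr7:16246743-16259540, minus strand), the receptor of C5a, was at 0.223, 0.336, 0.422, 0.492 and 0.654 CPM in WT, where no library held more than 16 counts, and between 8.05 and 13.8 CPM in Veh (median 9.73). C3ar1 had 22 to 47 counts in each WT library, so it was detected there, and both receptors were higher in each Veh kidney than in any WT kidney. The log2 fold changes were 4.55 ± 0.22 for C3ar1 (edgeR adjusted p = 2.01e-12) and 4.59 ± 0.30 for C5ar1 (adjusted p = 6.5e-11).

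Per length, the order of the members differed between the groups. In WT, Cfb was highest at 184 ± 15.5 FPKM (SD, n = 5), and its range of values lay above those of the other 8. C2 followed at 12.97 ± 3.88 FPKM, with the 3 C1q chains at 10.5 ± 2.57 (C1qb), 8.91 ± 2.53 (C1qa) and 7.58 ± 1.59 FPKM (C1qc). The ranges of these neighbours overlapped between mice, but within each mouse C1qb was above C1qa and C1qc was below it. In Veh, C1qb was at 319 ± 46.3 FPKM (SD, n = 6), C1qa at 284 ± 42.3, C1qc at 251 ± 48.1 and C3 at 241 ± 73.0 FPKM. The ranges of neighbours again overlapped between mice, with the same order of the chains within each mouse. Cfb was next at 180 ± 22.05 FPKM. Of the summed FPKM of the 9 members, Cfb made up 79.9% on average in WT and 13.5% in Veh. In both treated groups Cfb was again first, at 225.1 ± 11.4 FPKM under Anti-miR-21 (SD, n = 6) and 231 ± 9.86 FPKM under ACEi (SD, n = 3), and C3 and C1qb followed at nearly equal levels. The FPKM entries of C3, C4b and Cfb are marked by the authors as confounded with other genes.

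Anti-miR-21 was compared with Veh to ask how miR-21 inhibition alone changed the kidney. In all, 6 members fell, Cfb rose, and C2 and C4b did not pass the test. Of all tested genes 30.5% were called lower and 28.8% higher. Of the 6, 5 (the C1q chains and the receptors) had groups that did not overlap, as had 17.9% of all genes in this direction. The median log2 fold change was -0.95 over the members and -0.04 over all genes.

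C1qa fell to between 76.7 and 132 CPM (median 93.1), below every Veh library. The mean of 97.6 ± 22.8 CPM (SD, n = 6) was 2.52-fold lower than in Veh (log2 fold change -1.34 ± 0.15, edgeR adjusted p = 3.7e-07). C1qb and C1qc changed by -1.18 ± 0.14 and -1.29 ± 0.15 on the log2 scale. C5ar1, at 2.40 to 5.90 CPM (median 2.64), had the largest fall of the 9, by 1.64 on the log2 scale (SE 0.22, edgeR adjusted p = 3.94e-06), and C3ar1, at 11.2 to 23.7 CPM (median 15.8), fell by 0.95 (SE 0.16, adjusted p = 5.11e-05).

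C3 was between 343 and 850 CPM under Anti-miR-21 with a median of 552. Its upper libraries reached into the Veh range, and the log2 fold change was -0.75 ± 0.20 (edgeR adjusted p = 0.00331). This call was lost without the 4 libraries high in adipocyte markers, where the value was -0.51 (adjusted p = 0.0952). In flow cell A the difference of mean log2 CPM was -1.07, and in flow cell B, with 1 Anti-miR-21 and 2 Veh libraries, it was 0.10. For the other 5 members that fell the difference was negative in both flow cells, from -1.99 to -1.07 in A and from -0.98 to -0.52 in B.

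C4b lay inside the Veh range. It was at 87.9 to 126 CPM (median 99.6) against 74.8 to 129.9 CPM in Veh, with a log2 fold change of -0.08 and a 95% interval from -0.36 to 0.21. C2, at 69.1 to 84.9 CPM (median 78.6), overlapped Veh, with a log2 fold change of -0.32 ± 0.15 (edgeR adjusted p = 0.0781). C2 was called lower without Veh replicate 2 (-0.37, adjusted p = 0.0461) and with a term for flow cell (-0.36, adjusted p = 0.0417). On log2(FPKM + 1) in limma both were called lower, C4b at -0.49 (adjusted p = 0.0268) and C2 at -0.65 (adjusted p = 0.00127), and with a pseudocount of 0.1 at -0.50 (adjusted p = 0.0371) and -0.66 (adjusted p = 0.0018). Both were also called lower with scaling by library totals, at -0.40 (adjusted p = 0.0261) for C4b and -0.65 (adjusted p = 0.00095) for C2, where the median of all genes was -0.38. Cfb, at 558 to 706 CPM (median 623), lay above every Veh library, a 1.62-fold rise (log2 fold change 0.69 ± 0.10, edgeR adjusted p = 1.23e-05). With library totals the Cfb value was 0.35, and the FPKM ranges overlapped, at 213.01 to 244 against 153 to 219.9 in Veh. The difference of mean log2 CPM was 0.84 in flow cell A and 0.34 in B.

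**Figure D2:**
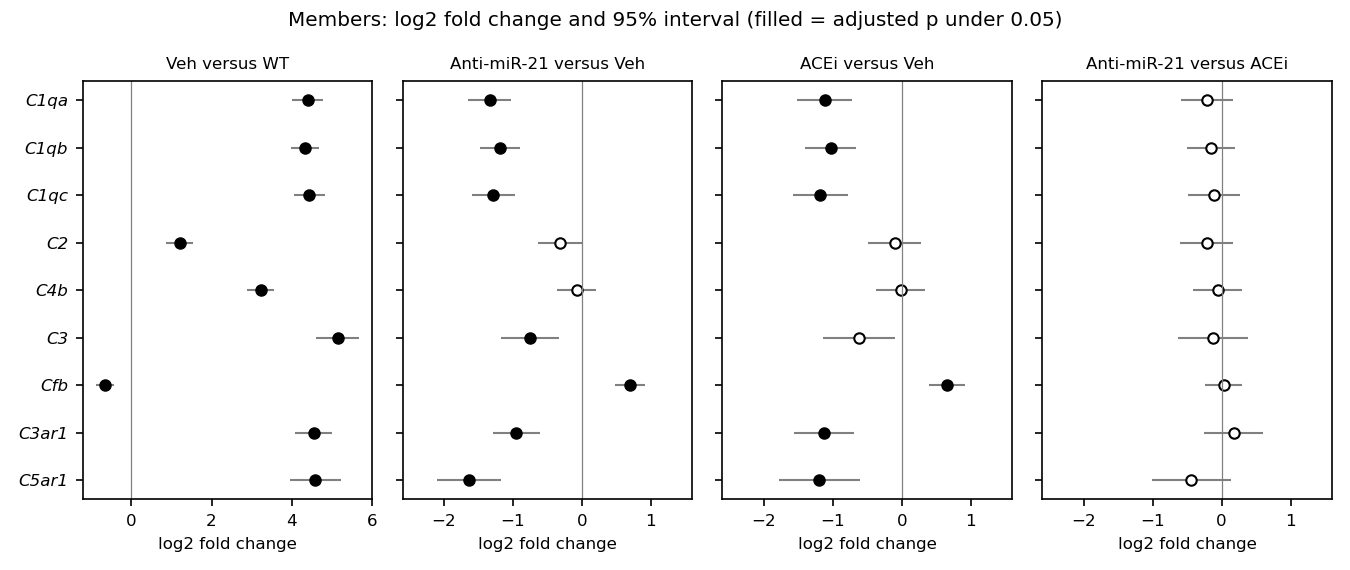
Log2 fold changes of the 9 members with 95% intervals in 4 comparisons, from edgeR over all 20 libraries (the first panel has its own axis range). Filled points have an adjusted p under 0.05, as in all 9 for Veh versus WT, 7 for Anti-miR-21 versus Veh, 6 for ACEi versus Veh and 0 for Anti-miR-21 versus ACEi.

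ACEi was compared with the same Veh libraries, so the values of the 2 treatments share their control. In this comparison 5 members fell, Cfb rose, and C2, C3 and C4b did not pass the test. Of all tested genes 19.1% were called lower and 21.0% higher. All 5 had groups that did not overlap, as had 18.8% of all genes in this direction.

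The 3 ACEi libraries had 104.6, 107 and 128 CPM of C1qa, all below Veh, a 2.17-fold fall (log2 fold change -1.12 ± 0.19, edgeR adjusted p = 0.00014). C1qb was at 118, 131 and 152 CPM and C1qc at 86.5, 89.0 and 107 CPM, with log2 fold changes of -1.03 ± 0.18 and -1.18 ± 0.19. C3ar1 was at 11.8, 14.1 and 18.3 CPM (-1.13 ± 0.21) and C5ar1 at 3.74, 3.90 and 5.96 CPM (-1.20 ± 0.28). These 5 genes were thus lower in each ACEi mouse than in any Veh mouse. Within flow cell B, with 2 ACEi and 2 Veh libraries, their differences of mean log2 CPM were between -1.20 and -0.93.

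C3 was at 601, 631 and 696 CPM under ACEi, and only the highest of these reached the lowest Veh library. Its log2 fold change of -0.62 ± 0.25 narrowly missed the threshold (edgeR adjusted p = 0.0556) and passed it in DESeq2 (-0.63, adjusted p = 0.0253) and without Veh replicate 4 (-0.66, adjusted p = 0.0436) or 6 (-0.68, adjusted p = 0.0382). It was smaller without the 4 libraries high in adipocyte markers (-0.37, adjusted p = 0.343) and without Veh replicate 3 (-0.47), and the adjusted p reached 0.169 with 1 mouse left out. The difference of mean log2 CPM was -0.80 in flow cell A, with 1 ACEi library, and -0.14 in flow cell B. C4b, at 94.9, 96.3 and 132 CPM, and C2, at 85.0, 89.5 and 97.8 CPM, overlapped Veh (1 ACEi library was above every Veh library for C4b), with log2 fold changes of -0.02 (95% interval -0.37 to 0.33) and -0.11 (-0.49 to 0.28). Cfb was at 571, 630 and 647 CPM, above every Veh library, with a log2 fold change of 0.66 ± 0.13 (edgeR adjusted p = 0.000382). It was 0.39 with library totals.

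Set against each other, the treatments gave no called difference in any of the 9 members, in a comparison in which 0.584% of all genes were called. No member had an unadjusted p under 0.05 in edgeR, and DESeq2 also called 0. The groups overlapped for every member except C2, at 69.1 to 84.9 CPM under Anti-miR-21 and narrowly above that, at 85.0 to 97.8 CPM, under ACEi. The intervals still allowed differences of size: for C5ar1 the log2 fold change of Anti-miR-21 against ACEi was -0.44 with a 95% interval from -1.0045 to 0.13, for C3 it was -0.13 (-0.64 to 0.38) and for C1qa -0.22 (-0.59 to 0.16).

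Both treated groups were also compared with WT. Of the 9 members, 8 were higher than WT under Anti-miR-21 and the same number under ACEi, where 23.9% and 25.2% of all genes were called higher. In each of the 8 the groups did not overlap, as was so for 14.7% of all genes under Anti-miR-21 and 23.9% under ACEi in this direction. C3 remained 21.1-fold and C1qa 8.40-fold above WT under Anti-miR-21, and 23.1-fold and 9.75-fold under ACEi. Cfb did not differ detectably, with log2 fold changes of 0.03 (95% interval -0.20 to 0.26) and -0.00 (-0.28 to 0.27). With library totals these became 0.27 and 0.31, both called higher.

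The treated mice were also placed on the log2 CPM scale between the mean of Veh (0%) and the mean of WT (100%), and lay at different points for different members. Under Anti-miR-21 the mean position was 30.7% of the way to WT for C1qa, 27.7% for C1qb, 29.4% for C1qc, 21.9% for C3ar1, 37.8% for C5ar1, 24.3% for C2, 15.0% for C3 and 2.15% for C4b. Under ACEi it was 25.2% for C1qa, 23.7% for C1qb, 26.4% for C1qc, 25.1% for C3ar1, 26.9% for C5ar1, 7.02% for C2, 11.2% for C3 and 0.351% for C4b. All 8 lay below the median over the 6869 genes called higher in Veh, which was 49.7% under Anti-miR-21 (quartiles 34.8% and 66.8%) and 36.4% under ACEi (quartiles 19.99% and 57.1%), and C5ar1 under Anti-miR-21 and the C1q chains and receptors under ACEi lay between the quartiles. Those 6869 genes rose by any amount, and genes with rises as large as those of the members were not compared separately. The SD between mice was 7.36 to 11.6 points for Anti-miR-21. C4b was the member that moved least, with single mice between -9.31% and 8.91%. Cfb stood at 104% and 100.5%, positions that rest on its Veh to WT distance with TMM scaling, which with library totals was close to 0 and was not called.

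**Figure D3:**
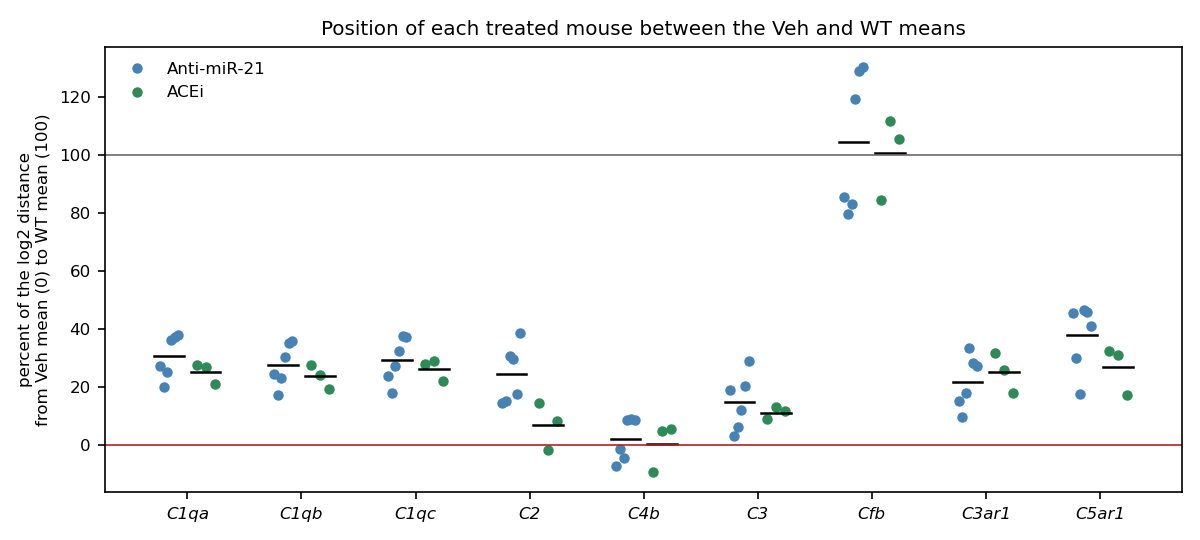
Position of each Anti-miR-21 (n = 6) and ACEi (n = 3) mouse for each member on a scale with 0 at the mean of Veh and 100 at that of WT, as a percent of the log2 CPM distance, with a line at each group mean. Apart from Cfb, all points lie below 50%, and the C4b points lie around 0.

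Markers of macrophages moved with the C1q chains and the receptors. Of 8 macrophage markers, 7 rose and Mertk fell in Veh. The same 7 fell and Mertk rose under Anti-miR-21, and 6 fell, Mertk rose and Aif1 did not pass the test under ACEi. Their summed level was 181 ± 6.38 CPM in WT (SD, n = 5), 518 ± 36.7 in Veh (n = 6), 300 ± 36.9 in Anti-miR-21 (n = 6) and 340 ± 32.0 in ACEi (n = 3), and they were led by Csf1r. None was at 0 in a group. In each library the mean log2 CPM of these markers was subtracted from that of each member. C1qa then lay at 0.94 ± 0.28 in WT (SD, n = 5), 2.41 ± 0.22 in Veh (n = 6), 1.82 ± 0.12 in Anti-miR-21 (n = 6) and 1.87 ± 0.08 in ACEi (n = 3), and the Veh libraries were above all others for each of the 3 chains. C3 was at 4.37 in Veh, 4.38 in Anti-miR-21 and 4.38 in ACEi on this scale. C4b was at 1.22 in Veh and 1.92 in Anti-miR-21, without overlap, and Cfb fell from 6.70 in WT to 3.06 in Veh. The part of macrophage number in these values was not tested.

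**Figure D4:**
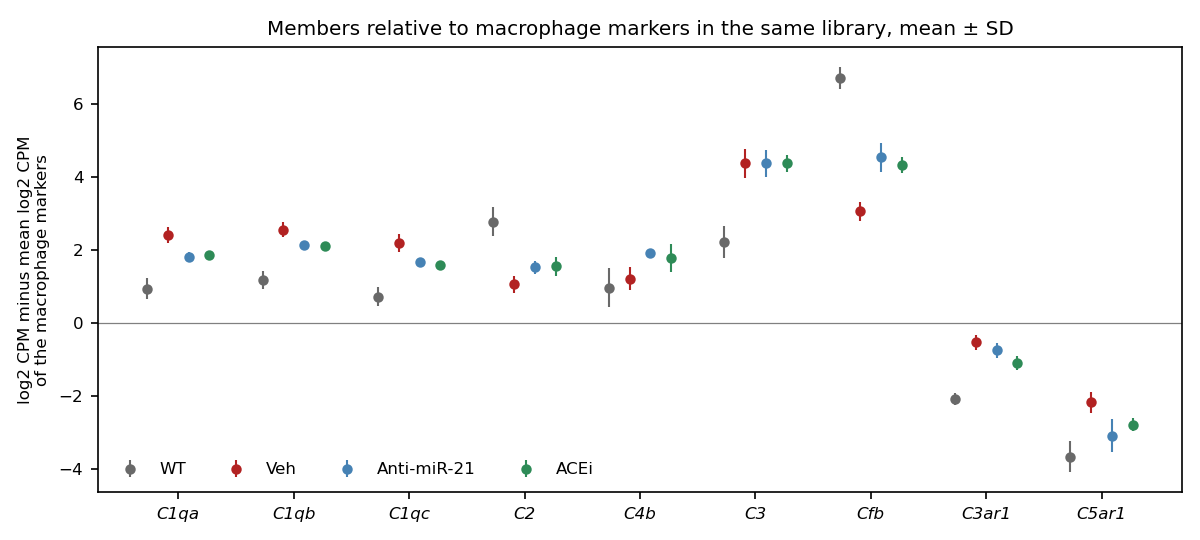
Log2 CPM of each member minus the mean log2 CPM of 8 macrophage markers in the same library, as group mean ± SD for WT (n = 5), Veh (n = 6), Anti-miR-21 (n = 6) and ACEi (n = 3). By group mean, the 3 C1q chains and both receptors are highest in Veh, while C2 and Cfb are highest in WT. Both receptors overlap between Veh and Anti-miR-21 on this scale.

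Other cell types also changed. The summed level of 5 proximal tubule markers, led by Slc34a1, was 13005 ± 1241 CPM in WT, 2154 ± 869 in Veh, 8253 ± 1746 in Anti-miR-21 and 7343 ± 1184 in ACEi, the same order of Veh against the rest as for Cfb. The 5 tubule injury markers, led by Vcam1 (Lcn2 was the higher in Veh, at 456 against 319 CPM), summed to 28.7 ± 5.37, 1047 ± 192, 414 ± 110 and 589 ± 46.9 CPM, and 5 fibroblast markers, led by Col1a1, to 190 ± 56.3, 1665 ± 114, 636 ± 165 and 867 ± 56.3 CPM. All 5 of each list rose in Veh. Under Anti-miR-21, 4 of 5 injury markers (not Havcr1) and 4 of 5 fibroblast markers (not Dcn) fell against Veh. Under ACEi only Lcn2 of the injury markers and Col1a1 and Pdgfrb of the fibroblast markers fell. Lcn2 was at 94.2 CPM under ACEi, and Col1a1 at 525 CPM against 1177 in Veh. No marker of either list was called between the treatments. Neutrophil markers were scarce: Mpo and, outside Veh, Ly6g had at most 3 counts in each library, and the sum, led by Csf3r, was 2.73 CPM in WT and 18.2 in Veh. Markers of dendritic cells (led by Zbtb46; 10.7 CPM in WT, 40.1 in Veh), T cells (Cd4; 2.49 and 21.2), B and plasma cells (Jchain; 11.9 and 43.9), endothelium (Emcn; 210 and 253) and podocytes (Podxl; 258 and 376) were also present. The T cell sum was 11.2 under Anti-miR-21 and 17.4 under ACEi, that of dendritic cells 29.9 and 35.4, and that of B and plasma cells 14.995 and 32.1 CPM. Against Veh, 4 of 5 T cell, 2 of 5 dendritic cell and 1 of 5 B and plasma cell markers fell under Anti-miR-21 and none of these under ACEi. Of all tested genes 30.5% were called lower under Anti-miR-21 and 19.1% under ACEi. Between the treatments no T cell, dendritic cell, or B and plasma cell marker was called, so these counts show no difference between them. The neutrophil sum was 10.4 under Anti-miR-21 and 11.9 under ACEi, that of endothelium 268 and 262, and that of podocytes 454 and 420 CPM. Under Anti-miR-21, Csf3r and Synpo fell and Kdr, Nphs1 and Podxl rose, and under ACEi Kdr and Nphs1 rose. Hepatocyte markers, led by Ttr, summed to 392 CPM in WT, 268 in Veh, 263 in Anti-miR-21 and 504 in ACEi, with Ahsg lower under Anti-miR-21 and Ttr higher under ACEi. Their part in the members' values was not tested.

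The genes with the profile most like each member over the 20 mice were found by the mean absolute difference of centred log2 CPM. For the C1q chains the nearest genes outside the members were Cd300c2, at 0.14 for C1qa, 0.13 for C1qb and 0.16 for C1qc, followed by Cd14 and Ncf4, Spp1 and Lrrc25, and Pirb and Lrrc25, respectively. The chains were closer to each other than to any of these, at 0.07 between C1qa and C1qb. Outside the members, C3ar1 was nearest to Cd84, Mgp and Mpeg1 (0.19 to 0.20) and C5ar1 to Ncf4, Cd14 and Bcl2a1d (0.25 to 0.27), and C1qa was nearer to C5ar1 (0.24) than these. C3 was nearest to Lif, Aoc1 and Fcrls (0.25 to 0.35) and C4b to Stc2, Wfdc17 and Pik3r5 (0.29 to 0.33), so no gene followed these 2 as closely as Cd300c2 followed C1q. C2 was nearest to Igf2bp2, Slc43a3 and Ptpro (0.16 each) and Cfb to Habp2, 1600014C10Rik and Atp6v1c1 (0.08 to 0.09). These distances are to be read against each member's own mean absolute deviation from its mean over the 20 mice, which was 0.29 for Cfb and 0.42 for C2, but 1.37 for C1qa and C1qb, 1.38 for C1qc, 1.76 for C3, 1.19 for C4b, 1.46 for C3ar1 and 1.40 for C5ar1. A small distance for Cfb and C2 therefore does not show a closer likeness.

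Of the other 37 complement genes tested, 20 rose, 6 fell and 11 did not pass the test in Veh against WT, beside 39.0% and 34.0% of all genes, with a median log2 fold change of 1.18. Under Anti-miR-21, 15 fell and 6 rose against Veh, beside 30.5% and 28.8% of all genes, and under ACEi 12 fell and 5 rose, beside 19.1% and 21.0%. No one of the 37 was called between the treatments.

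Among genes of classical and lectin initiation, 4 of 10 rose and 3 fell in Veh, close to the 39.0% and 34.0% of all genes. C1s1, a protease of the complex that C1q forms and the gene that led the list, rose from 23.2 ± 7.42 CPM in WT (SD, n = 5) to 130 ± 14.6 in Veh (SD, n = 6). It fell to 73.8 ± 16.8 under Anti-miR-21 (log2 fold change -0.82 ± 0.17) and 87.4 ± 8.17 under ACEi (-0.58 ± 0.21). Its partner C1ra rose by 2.22 ± 0.21 on the log2 scale. Masp2, a protease of the lectin pathway, fell most in this list, from 2.84 ± 0.95 to 0.332 ± 0.191 CPM (log2 fold change -3.08 ± 0.33), and rose under both treatments. It overlaps Tardbp on the other strand. C1rb, the largest fitted rise of the list, was at most at 12 counts in any library and at most 2 in WT, which is too few for a fold. Fcnb and Colec10 were at 0 in every library.

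Of the alternative pathway, properdin (Cfp), which stabilises the factor B enzyme, rose from 4.13 ± 0.56 CPM in WT (SD, n = 5) to 37.0 ± 5.76 in Veh (SD, n = 6), and fell under both treatments, by 1.26 under Anti-miR-21 and 0.87 under ACEi on the log2 scale. Factor D (Cfd), the protease that cleaves factor B and a product of adipocytes, was at 253, 272 and 329 CPM in Veh replicates 2, 3 and 1 and at 0.0282, 0.962 and 15.6 CPM in the other 3. Its high libraries were those with high adipocyte markers, including Anti-miR-21 replicate 4 at 132 CPM, and its called rise in Veh (log2 fold change 4.71 ± 1.42, edgeR adjusted p = 0.0056) came with groups that overlapped. Cfd was also called lower under ACEi than in Veh (log2 fold change -5.53), again with groups that overlapped, at 0.164 to 5.47 CPM under ACEi. The part of adipocytes in these Cfd values was not tested.

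In the terminal pathway 3 of 6 genes rose and 2 fell in Veh, beside 39.0% and 34.0% of all genes. C6 rose from 0.787 ± 0.309 CPM in WT to 10.7 ± 3.85 in Veh, and C7, which led the list although C8a was higher in WT, from 8.20 ± 4.65 to 23.9 ± 9.04. The C8 chains C8a and C8g fell, the first from 39.1 ± 7.20 to 2.44 ± 2.999 CPM (log2 fold change -4.02 ± 0.53, edgeR adjusted p = 9.4e-07) and the other from 19.3 ± 1.76 to 3.05 ± 1.39. C8a came back to 19.7 ± 5.59 CPM under Anti-miR-21 and 16.2 ± 1.01 under ACEi, with log2 fold changes of 3.03 ± 0.51 and 2.75 ± 0.57 against Veh. C9, which forms the pore, was at most 0.923 CPM in any library.

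Soluble regulators rose in 5 of 7, and none fell, beside 39.0% and 34.0% of all genes. Clusterin (Clu), which blocks the terminal complex and led the list, rose from 325 ± 46.3 CPM in WT (SD, n = 5) to 2006 ± 448 in Veh (SD, n = 6) and was 899.8 ± 167 under Anti-miR-21 (log2 fold change -1.16 ± 0.15) and 1129 ± 150 under ACEi (-0.83 ± 0.18). Factor I (Cfi), which cleaves C3b and C4b, had the largest rise of the list, by 3.69 ± 0.25 on the log2 scale. It fell by 0.79 under Anti-miR-21 and did not pass the test under ACEi (log2 fold change -0.54 ± 0.25, edgeR adjusted p = 0.0904). Of membrane regulators 1 of 6 rose and 1 fell, beside the same shares of all genes. Cd55, which takes apart the C3-cleaving enzymes on host cells, fell from 21.7 ± 1.63 CPM to 10.2 ± 0.78, and was 14.6 ± 1.87 and 16.9 ± 1.36 under the treatments, above every Veh library. Susd4 rose slightly (0.51 ± 0.13), and Cr1l, which led the list, had a log2 fold change of -0.02 ± 0.05. Both values rest on TMM scaling. As FPKM, Cr1l was 26.1 ± 1.35 in WT and 38.1 ± 2.30 in Veh, and Susd4 was 2.21 ± 0.46 and 4.51 ± 0.88. Over all genes the median log2 fold change on log2(FPKM + 1) was 0.27 for Veh against WT.

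Of 6 other receptors, 5 rose and none fell, beside 39.0% and 34.0% of all genes. Itgb2, the beta chain of complement receptors 3 and 4, led the list although Cd93 was higher in WT (16.4 ± 4.31 CPM) and under Anti-miR-21 (33.3 ± 4.07). Itgb2 rose from 4.29 ± 1.13 CPM in WT to 55.3 ± 6.85 in Veh, and its partners Itgam and Itgax rose by 4.44 ± 0.23 and 4.30 ± 0.24 on the log2 scale. All 3 fell under both treatments, with log2 fold changes from -1.24 to -0.84 under Anti-miR-21 and from -0.89 to -0.51 under ACEi. C5ar2, another C5a receptor, had at most 3 counts in any WT library and 1.30 to 2.94 CPM in Veh.

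**Figure D5:**
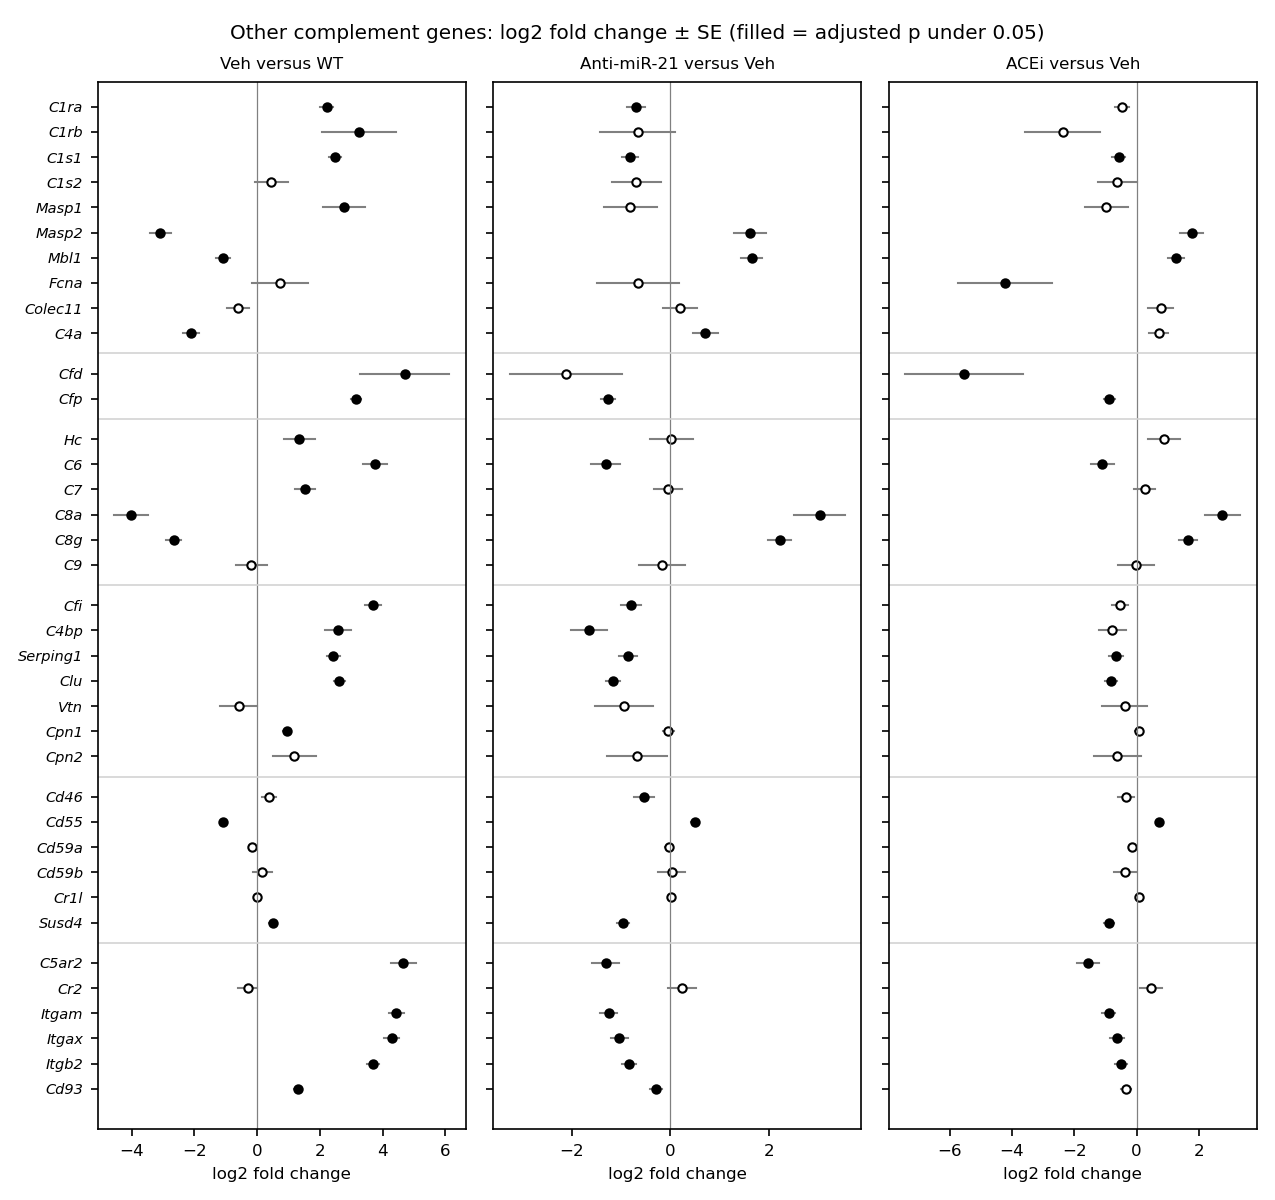
Log2 fold changes ± SE (edgeR, 20 libraries) of the 37 other complement genes tested, in Veh versus WT, Anti-miR-21 versus Veh and ACEi versus Veh (each panel with its own axis range), with grey lines between the lists of classical and lectin initiation, alternative pathway, terminal pathway, soluble regulators, membrane regulators and other receptors. Filled points have an adjusted p under 0.05, and C8a, C8g, Masp2, Mbl1, C4a and Cd55 are the 6 called lower in Veh, of which C4a was higher there as FPKM.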

How the data were processed

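Kidney RNA of 20 mice was sequenced as paired-end reads, and groups were taken from the labels. The members and gene lists were chosen with earlier results of these data known. As deposited, the authors gave an estimated count (expected count) per Ensembl gene on GRCm38, not normalized between libraries, of which 27.9% of the positive values were not whole, and these were rounded. The authors also deposited FPKM values, normalized by length and library total, in a table in which 3 further columns could not be mapped to a labelled mouse and were not used. Exon lengths and a library table were deposited too. The aligner was run by the authors. Ages and doses are from the labels.

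Low-count genes were removed by filterByExpr at a count of 10 and a total of 15, libraries were scaled by TMM, and quasi-likelihood tests were run in edgeR (4.0.16; R 4.3.3) with 1 coefficient per group over all 20 libraries, Benjamini-Hochberg adjustment and a threshold of 0.05. Log2 CPM used a prior count of 2. The alternatives were DESeq2 1.42.0, library totals, upper-quartile scaling, no filter, at least 10 counts in every library, flow cell as a term or flow cell A alone, only the groups compared, limma 3.58.1 on log2(FPKM + 1) and log2(FPKM + 0.1), and each mouse left out. Leaving out the 4 libraries with over 500 counts of Adipoq or the 3 with over 100 counts of Ahsg was chosen after seeing the data. The labels do not say how the mice of a group relate beyond being separate mice. Library totals were 28474301 to 29479629 counts, and C5ar1 had the fewest counts of the members. The named genes were the 9 members, Col4a3, the largest rise, the largest fall and the most abundant gene of each complement list, the most abundant marker of each marker list and the 3 nearest profiles (protein-coding, mean of at least 1 log2 CPM); C1ra, C8g, Cfp, C9, C4a, Itgam, Itgax, Cd93, Lcn2, Vtn, Hc and Fcna were added after their values were seen. 1 further complement gene and the call of 1 cell type marker are not reported here. The fits were tested on simulated data. Gene positions are from GENCODE vM21 (GRCm38). Plots used Python 3.11.15 and matplotlib 3.10.9.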

Additional observations from a re-analysis of the deposited data

Results flagged for a closer look

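One of 27 sets of member levels within a group of 5 or 6 mice had a mouse far from the rest by Dixon's ratio, which chance gives in about 5% of sets. Cfb in Veh replicate 4 was at 527 CPM, and the other 5 Veh mice were between 326 and 383 CPM. Without this mouse the Cfb log2 fold change between Veh and WT was -0.76 instead of -0.66, and against Veh it was 0.82 for Anti-miR-21 and 0.79 for ACEi. The cause was not tested.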

How the results depend on the processing

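The count of members called was within 1.5 times the reported one under each alternative. Of 615 member values under an alternative 571 kept their direction and their side of the threshold, as did 520 of 540 with 1 mouse left out. No paired analysis was possible because the mice carry no shared numbers: the replicate numbers are in accession order and pair no mice. Flow cell A alone was not fitted for ACEi, which has 1 library there.

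Scaling by library totals moved the median of all genes by up to 0.58 and the share of called genes that were higher from 53.4% to 81.2% for Veh versus WT, from 48.6% to 19.96% for Anti-miR-21 versus Veh, from 52.4% to 20.5% for ACEi versus Veh, from 54.6% to 88.6% for Anti-miR-21 versus WT and from 52.7% to 85.6% for ACEi versus WT. With totals, upper-quartile scaling, a term for flow cell, the 2 groups alone, FPKM, the libraries high in Ahsg left out or Veh replicate 2 left out, C2 was called lower under Anti-miR-21. C3 was called lower under ACEi in 8 alternatives and without Veh replicate 4 or 6.

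The values that changed sign were close to 0 apart from Cfb against WT. C4b was 0.072 for Anti-miR-21 versus Veh and 0.096 for ACEi versus Veh without the 4 libraries high in adipocyte markers, 0.0010 for ACEi versus Veh with no filter, and between -0.18 and 0.071 there with 1 mouse left out. For Anti-miR-21 versus ACEi, a term for flow cell gave 0.0088 for C4b, and leaving out 1 mouse gave -0.14 to 0.12. C1qc was between -0.22 and 1.1e-05 there with 1 mouse left out. Cfb was -0.043 with totals, -0.040 with FPKM and either pseudocount, and -0.019 to 0.070 with 1 mouse left out, and C3ar1 was -0.038 and -0.054 with FPKM and pseudocounts of 1 and 0.1. Against WT, Cfb under Anti-miR-21 was -0.026 in flow cell A, -0.054 without the libraries high in Ahsg, and -0.013 to 0.092 with 1 mouse left out. Under ACEi it was 0.31 with totals, 0.33 with FPKM and either pseudocount, 0.035 with upper-quartile scaling, 0.037 with no filter, 0.055 with at least 10 counts, 0.027 with the 2 groups alone, 0.030 without the libraries high in adipocyte markers, and -0.044 to 0.059 with 1 mouse left out.

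The share of tested genes called between Anti-miR-21 and ACEi was 0.584%, and 2.48% with DESeq2, 0.243% with no filter, 1.12% with at least 10 counts, 0.288% with FPKM and pseudocount 0.1, 0.365% without the libraries high in adipocyte markers and 0.117% (without ACEi replicate 3) to 1.22% (without Anti-miR-21 replicate 2) with 1 mouse left out. For ACEi versus Veh it was 40.1%, and 26.7% without the libraries high in adipocyte markers, where 3 of the 6 Veh libraries were removed. Over the alternatives with no single mouse left out, it ranged from 23.7% to 52.8%. The ranges were 37.4% to 69.9% for Anti-miR-21 versus Veh (59.2% in the main fit) and 25.9% to 49.5% for Anti-miR-21 versus WT (43.7%). For ACEi versus WT the range was 28.7% to 53.1% (47.7%). Otherwise the causes were not tested.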

Other observations

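Vitronectin (Vtn), a soluble regulator of the terminal complex, was highest in the 3 libraries with the most Ahsg, at 2.90 and 3.40 CPM in WT replicates 4 and 5 and 2.99 CPM in Veh replicate 6, and at most 1.07 CPM in each other library. C5 itself (Hc), the source of the ligand of C5ar1, was at 0.123 to 1.43 CPM in WT, 0.700 to 4.57 in Veh, 1.40 to 2.56 in Anti-miR-21 and 2.83 to 4.05 in ACEi, and was called higher than WT in each of these 3 groups but not between ACEi and Veh (edgeR adjusted p = 0.181). Ficolin A (Fcna) was called lower under ACEi than in Veh (edgeR adjusted p = 0.031), with 4.06 CPM in Veh replicate 3, 0.137 to 0.580 CPM in the other 5 Veh libraries and at most 2 counts in each ACEi library. The FPKM ratio of C3ar1 to C5ar1 was 2.96 ± 2.12 in WT (SD, n = 5; 1.59 to 6.58), 2.33 ± 0.33 in Veh (SD, n = 6) and 4.21 ± 1.56 under Anti-miR-21 (SD, n = 6), and 2.80 ± 0.42 under ACEi (SD, n = 3).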
